A study of Oryza sativa Japonica Group with 6 samples.

Results

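Transcripts of Rubisco activase and of the small chain of Rubisco were followed in rice seedlings held at chilling or control temperature, at 3 of the 55800 loci in the deposited table. The 3 loci were chosen by identifier: LOC_Os11g47970, described in the table as Rubisco activase, and LOC_Os12g17600 and LOC_Os12g19470, both described as Rubisco small chain (also called the small subunit). All 3 were among the 19438 loci that were tested because 2 or more libraries reached an RPKM of 1. RPKM divides the reads of a locus by its length and by the library total, so levels of different loci are compared per length.

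The study concerned how the leaves of seedlings roll in the cold. Stems and leaves were taken from 2-week-old seedlings of the japonica cultivar Lijiangxintuanheigu after 24 h at 11 °C, 13 °C or 25 °C. Each temperature had 2 biological replicates according to the series design, giving 6 libraries. All libraries came from this 1 cultivar, and stem and leaf were not separated.

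Rubisco fixes carbon dioxide onto ribulose bisphosphate in the first step of the Calvin cycle, and it is the most abundant protein of rice leaves. Its large chain carries the catalytic site and is encoded in the chloroplast genome, whereas its small chain is encoded by a family of nuclear genes. Rubisco activase is a nuclear-encoded, ATP-dependent enzyme of the chloroplast that removes inhibitory sugar phosphates from the catalytic sites of Rubisco and so restores its activity. In rice the activase gene is known to give a long and a short protein isoform by alternative splicing, and the table holds 1 value per locus, so isoforms were not separated.

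The library totals recovered from the RPKM values lay between 15.96 and 18.75 M reads. A set of 92 organelle-type loci was marked by protein identifiers that name genes of the organelle genomes, such as the Rubisco large chain. These loci took 4.4%, 3.99% and 1.2% of the reads in replicate 1 at 11, 13 and 25 °C. They took 2.77%, 0.335% and 0.186% in replicate 2, so that replicate 1 was higher at every temperature. Another locus, LOC_Os01g57968, had 59100, 50178 and 25656 RPKM in replicate 1 at these temperatures, and 14278, 912 and 266 RPKM in replicate 2. It is part of the summed RPKM used for shares below, and its part in the results was not tested. Changes within each replicate number are therefore given for the activase and small chain loci. All 165 calls made in the gene lists below, summed over lists and comparisons, had the same direction within replicate 1 and within replicate 2. Calls made from these same libraries favour such agreement, so it is not a separate check on replicate number. Of the defining transcripts of green leaf, the chlorophyll a/b binding proteins summed to between 2046 and 14914 RPKM. OsLsi1, which marks roots, had 0.814 and 0.668 RPKM at 11 °C, 11.9 and 10.9 RPKM at 13 °C and 18.1 and 12.9 RPKM at 25 °C, low throughout but lowest at 11 °C; its part in the results was not tested. The root marker OsLsi2 and the shoot meristem marker OSH1 were listed at 0 in all 6 libraries under upper-case identifiers, which hold no value above 0 in any replicate 2 library.

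The activase transcript was far lower at both low temperatures, and it was the only one of the 3 loci that fell in every comparison. LOC_Os11g47970 lies on chromosome 11 from 28934294 to 28936340 on the minus strand, in the coordinates of the table. It had 1015 and 650 RPKM at 11 °C, 4147 and 4905 RPKM at 13 °C and 27017 and 36629 RPKM at 25 °C. The 3 temperatures did not overlap, and the order 11, 13, 25 °C was the same in both replicates. The root marker OsLsi1, at 0.668 to 18.1 RPKM, had the same order. By RPKM the activase locus LOC_Os11g47970 ranked 32nd and 56th among all loci at 11 °C and 8th and 3rd at 13 °C. At 25 °C it was the most abundant transcript of the whole table in both libraries, with 4.61% and 6.35% of the summed RPKM.

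Against 25 °C, the activase level fell by 5.27 ± 0.38 on the log2 scale at 11 °C (log2 of RPKM + 1, ± standard error; limma adjusted p = 4.09e-05). The means were 832 ± 258 RPKM at 11 °C and 31823 ± 6797 RPKM at 25 °C (SD, n = 2 each), a level 38.2-fold lower at 11 °C. Within replicate 1 the level was 26.6-fold lower and within replicate 2 it was 56.4-fold lower. By its log2 difference it ranked 18th from the lowest of the 19438 loci. At 13 °C the mean was 4526 ± 536 RPKM (SD, n = 2), 7.03-fold lower than at 25 °C, with a log2 difference of -2.80 ± 0.38 (limma adjusted p = 0.000777). The fall was 6.52-fold within replicate 1 and 7.47-fold within replicate 2. Set directly against each other, 11 °C was 5.44-fold lower than 13 °C (log2 difference -2.47, limma adjusted p = 0.00216), by 4.09-fold within replicate 1 and by 7.55-fold within replicate 2. Without a filter on low values this last difference kept its size but its adjusted p was 0.0506.

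The small chain transcripts took another course and were highest at 13 °C. LOC_Os12g17600, on chromosome 12 from 10080398 to 10081661 on the minus strand, had 4757 and 3490 RPKM at 11 °C, 10523 and 9566 RPKM at 13 °C and 3224 and 5236 RPKM at 25 °C. Both 13 °C libraries stood above the other 4 libraries, while the 11 °C and 25 °C libraries overlapped. The locus ranked 4th and 1st of all loci at 13 °C, against 6th and 5th at 25 °C.

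Between 11 and 25 °C no difference was called for LOC_Os12g17600: the means were 4123 ± 896 RPKM at 11 °C and 4230 ± 1423 RPKM at 25 °C (SD, n = 2 each), and the log2 difference of -0.01 had a 95% interval of -0.92 to 0.89 (limma adjusted p = 0.983). The replicates went opposite ways, with 11 °C 1.48-fold the level of 25 °C in replicate 1 and 1.5-fold lower in replicate 2. At 13 °C the mean of 10044 ± 676 RPKM (SD, n = 2) was 2.37-fold that at 25 °C (log2 difference 1.29 ± 0.39, limma adjusted p = 0.0297). The rise was 3.26-fold in replicate 1 and 1.83-fold in replicate 2. The level at 11 °C was 2.44-fold lower than at 13 °C (log2 difference -1.30 ± 0.39, limma adjusted p = 0.0346), by 2.21-fold in replicate 1 and 2.74-fold in replicate 2. Both calls of this locus sat close to the threshold: the rise at 13 °C passed it in 7 of 16 other settings (adjusted p 0.0051 to 0.24) and the difference between 11 and 13 °C in 8 of 16 (0.00682 to 0.265). Leaving out either library of 11 °C or of 13 °C ended both calls; without 11 °C replicate 1, for example, the rise at 13 °C had an adjusted p of 0.0619.

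LOC_Os12g19470, described as small chain A, lies on chromosome 12 from 11320267 to 11322547 on the plus strand. It had 228 and 223 RPKM at 11 °C, 1393 and 1480 RPKM at 13 °C and 361 and 624 RPKM at 25 °C. The temperatures did not overlap, with 13 °C highest and 11 °C lowest. Recovered from the RPKM values as the shortest length that gave whole reads, the length of LOC_Os12g19470 was 2281 bases, its whole span. That of LOC_Os12g17600 was 1161 of 1264 bases. The difference in RPKM between these small chain loci therefore also depends on how the lengths were set, while comparisons across temperatures do not.

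The LOC_Os12g19470 level at 11 °C averaged 225 ± 3.47 RPKM, against 493 ± 186 RPKM at 25 °C (SD, n = 2 each), a level 2.19-fold lower at 11 °C (log2 difference -1.07 ± 0.30, limma adjusted p = 0.0187). It was 1.59-fold lower within replicate 1 and 2.8-fold lower within replicate 2. This call ended when either 11 °C library was left out (adjusted p = 0.0772 without replicate 1 and 0.0962 without replicate 2), and the log2 difference was -0.68 without 25 °C replicate 2. At 13 °C it averaged 1437 ± 61.7 RPKM (SD, n = 2), 2.92-fold the 25 °C level (log2 difference 1.59 ± 0.30, limma adjusted p = 0.00363), by 3.86-fold in replicate 1 and 2.37-fold in replicate 2. The 11 °C level was 6.37-fold lower than the 13 °C level (log2 difference -2.67 ± 0.30, limma adjusted p = 0.000562), by 6.11-fold and 6.64-fold in replicates 1 and 2. The calls of the rise at 13 °C and of the difference between 11 and 13 °C were kept in all 16 other settings run.

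**Figure D1:**
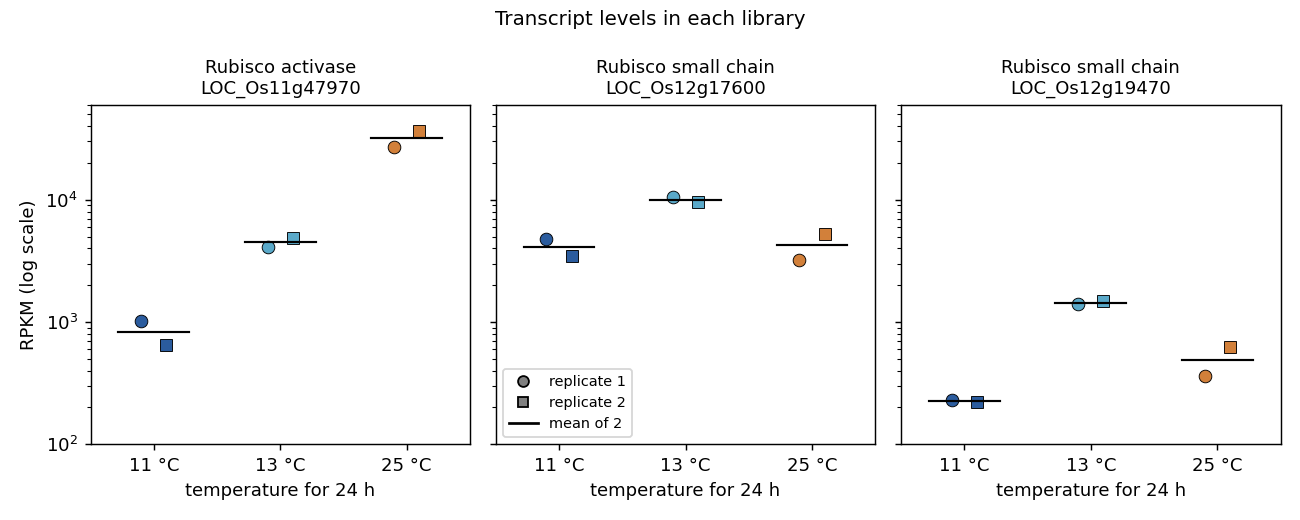
RPKM on a log scale of the activase locus and the small chain loci LOC_Os12g17600 and LOC_Os12g19470 in each of the 6 libraries, by temperature; circles are replicate 1, squares replicate 2, and the black line is the mean of 2. Activase lies lowest at 11 °C and highest at 25 °C, from 650 to 36629 RPKM, while both small chain loci are highest at 13 °C.

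In counts, 2 of the 3 loci fell at 11 against 25 °C and none rose, where 21.4% of all tested loci fell and 28.6% rose. At 13 against 25 °C, 1 of the 3 fell and 2 rose, where 17.0% of all tested loci fell and 26.3% rose. At 11 against 13 °C all 3 fell, where 18.2% fell and 17.2% rose. Values of the temperatures compared did not overlap at 2 of the 3 loci for 11 against 25 °C, where 74.6% of all tested loci showed no overlap, and at all 3 for 13 against 25 °C and 11 against 13 °C, where 70.3% and 68.3% did. The median log2 difference of all tested loci was 0.13, 0.12 and -0.02 in these comparisons, and it was 0.01, -0.01 and 0.00 after median-of-ratios scaling. Of the calls at 11 against 25 °C, 5566 were higher and 4153 lower at 11 °C, and after quantile normalization 5482 were higher and 5695 lower. Of those at 13 against 25 °C, 5115 were higher and 3299 lower at 13 °C, and after quantile normalization 4895 were higher and 4921 lower. With 2 libraries a group an exact permutation test of a single locus cannot go below p = 0.333, so the adjusted p-values rest on the spread shared across loci in the limma model. In whole stem and leaf tissue, fewer cells of a type and less of a transcript per cell cannot be told apart. The times of day of collection are not given, and temperature and time of day cannot be told apart.

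A ratio of levels within a library does not depend on the scaling between libraries. The ratio of activase to LOC_Os12g17600 RPKM was 0.213 and 0.186 at 11 °C, 0.394 and 0.513 at 13 °C, against 8.38 and 7 at 25 °C. Activase RPKM was thus above that of LOC_Os12g17600 in the 25 °C libraries and below it in the 4 cold libraries, and the temperatures did not overlap. Against LOC_Os12g19470 the activase ratio was 4.45 and 2.92 at 11 °C, 2.98 and 3.31 at 13 °C, against 74.8 and 58.7 at 25 °C. Here the low temperatures overlapped each other, and both lay far below 25 °C. These ratios were not tested.

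The small chain loci also differed among themselves in how far they followed temperature. The ratio of LOC_Os12g17600 to LOC_Os12g19470 was 20.9 and 15.7 at 11 °C, 7.55 and 6.46 at 13 °C, against 8.92 and 8.39 at 25 °C, so that the 11 °C libraries stood apart. In reads rather than levels, LOC_Os12g17600 took 77.6% and 71.8% of the reads of the small chain family at 11 °C, 60.1% and 57.0% at 13 °C, against 57.0% and 56.4% at 25 °C. LOC_Os12g19470 took 7.3% and 9.0% at 11 °C, 15.6% and 17.3% at 13 °C, against 12.6% and 13.2% at 25 °C. The small chain sequences are closely related, and reads that match several loci may have been shared among them or assigned to 1 of them, since the counting is not given in the sources used here.

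Summing over the small chain loci sets aside how reads were divided among them, though not whether reads with several matches were dropped or counted more than once. The sum was 7119 and 5641 RPM (reads divided by the library total) at 11 °C, 20313 and 19490 at 13 °C, against 6563 and 10786 at 25 °C. Both 13 °C libraries were above the other 4, and 11 and 25 °C overlapped. Activase had 0.2 and 0.161 reads for each small chain read at 11 °C, 0.286 and 0.353 at 13 °C, against 5.77 and 4.76 at 25 °C. As a share of all summed RPKM, the 3 loci together held 1.05% and 0.8% at 11 °C, 2.68% and 2.73% at 13 °C, against 5.23% and 7.36% at 25 °C.

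**Figure D2:**
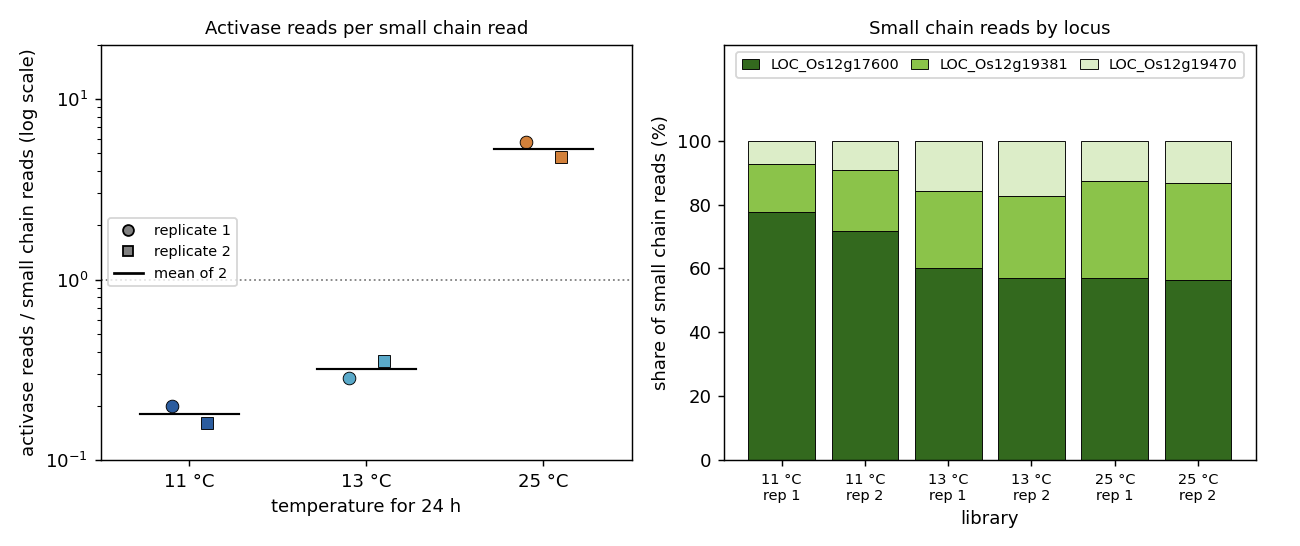
Left, activase reads divided by summed small chain reads in each library on a log scale (circles replicate 1, squares replicate 2, line the mean of 2, dotted line a ratio of 1); right, stacked bars from 0 of the share of small chain reads at each of 3 loci in each library, in percent. The ratio is above 1 at 25 °C only (4.76 to 5.77), and LOC_Os12g17600 holds its highest shares at 11 °C (71.8% and 77.6%).

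Among the other loci described as Rubisco or its activase, the remaining small chain locus on chromosome 12 behaved much like LOC_Os12g19470. LOC_Os12g19381 had 918 and 921 RPKM at 11 °C, 4224 and 4299 RPKM at 13 °C and 1711 and 2815 RPKM at 25 °C. The temperatures did not overlap. It fell at 11 against 25 °C (log2 difference -1.25, limma adjusted p = 0.0143), rose at 13 against 25 °C (0.96, limma adjusted p = 0.0469) and was lower at 11 than at 13 °C (-2.21, limma adjusted p = 0.00187). Within replicates 1 and 2 its level at 13 °C was 2.47-fold and 1.53-fold that at 25 °C. The rise at 13 °C passed the threshold in 4 of 16 other settings (adjusted p 0.00721 to 0.31), and leaving out any 1 library but 25 °C replicate 2 ended it. The fall at 11 against 25 °C was kept in 12 of 16 and ended without either 11 °C library (adjusted p = 0.0808 without replicate 1 and 0.0996 without replicate 2), and the difference between 11 and 13 °C was kept in all 16.

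The small chain locus of chromosome 2, LOC_Os02g05830, belongs to the small chain type known in rice from tissues with little photosynthesis, and it ran the other way at a far lower level. It had 5.79 and 6.43 RPKM at 11 °C, 1.48 and 2 RPKM at 13 °C and 3.23 and 5.21 RPKM at 25 °C. It was lowest at 13 °C, where it fell against 25 °C (log2 difference -0.91, limma adjusted p = 0.0285), and it was higher at 11 than at 13 °C (1.38, limma adjusted p = 0.00641). The difference between 11 and 25 °C was 0.47 (limma adjusted p = 0.186). Within replicates 1 and 2 the 13 °C level was 2.19-fold and 2.6-fold lower than at 25 °C. This fall kept its call in 12 of 16 other settings and lost it without a filter on low values (limma adjusted p = 0.0703). It also lost its call without 13 °C replicate 1 (log2 difference -0.77), 13 °C replicate 2 (-1.05) or 25 °C replicate 2 (-0.63).

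A second locus described as activase lies 1687 bases from LOC_Os11g47970 on the same strand. LOC_Os11g47980 had 2.03 and 0.969 RPKM at 11 °C, 1.23 and 1.07 RPKM at 13 °C and 125 and 79.5 RPKM at 25 °C. Its low-temperature values overlapped each other and lay far below those at 25 °C, with log2 differences of -5.37 at 11 °C and -5.55 at 13 °C (limma adjusted p = 2.2e-05 and 2.3e-05). Within replicates 1 and 2 it was 61.6-fold and 82.1-fold lower at 11 °C, and at 13 °C it was 0.00987 and 0.0134 times the 25 °C level. Unlike LOC_Os11g47970, it had no call between 11 and 13 °C (log2 difference 0.19, limma adjusted p = 0.688); whether the 2 loci differed in this was not tested. The ratio of LOC_Os11g47970 to LOC_Os11g47980 RPKM was 501 and 671 at 11 °C, 3366 and 4601 at 13 °C, against 216 and 461 at 25 °C. Reads shared between these neighbours were not examined.

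The third activase-type locus, LOC_Os04g56320, described as activase 2, had 23.8 and 33.3 RPKM at 11 °C, 28.5 and 36.5 RPKM at 13 °C and 19.6 and 20.8 RPKM at 25 °C. It was not called in any comparison, and the limma adjusted p was 0.152 for 11 against 25 °C and 0.0634 for 13 against 25 °C. All cold values lay above those at 25 °C, by 1.22-fold and 1.6-fold within replicates 1 and 2 at 11 °C and by 1.46-fold and 1.76-fold at 13 °C. The difference at 13 °C passed the threshold in 3 of 16 other settings.

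The large chain loci of the table differed widely between replicate numbers. LOC_Os10g21268 had 3545 and 135 RPKM at 11 °C, 11633 and 45.1 RPKM at 13 °C and 1653 and 0.666 RPKM at 25 °C, with the replicate 1 library higher at every temperature. Within replicates 1 and 2 it was 2.14-fold and 203-fold the 25 °C level at 11 °C, and 7.04-fold and 67.8-fold at 13 °C, so both cold values were above that at 25 °C in each. LOC_Os12g10580, LOC_Os01g58020 and LOC_Os05g35330 were also higher in replicate 1 at every temperature, at lower levels. None of the 4 was called in any comparison in the model without the replicate number; for LOC_Os10g21268 the limma adjusted p was 0.397 for 11 against 25 °C, with a standard error of 3.43 on the log2 scale. These are loci on nuclear chromosomes that match the chloroplast gene, and reads from chloroplast transcripts cannot be told apart from theirs here. The replicate numbers that were high for the large chain were also high for organelle-type reads, a set that takes in the large chain by its identifier. The part of organelle RNA in the small chain and activase results was not tested. The activase fall was as described above within each replicate number.

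**Figure D3:**
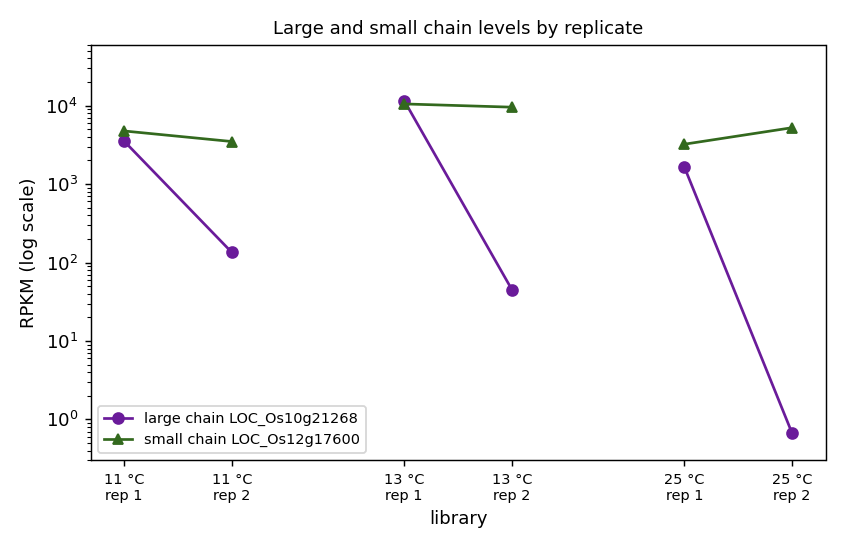
RPKM on a log scale of the large chain locus LOC_Os10g21268 (circles) and the small chain locus LOC_Os12g17600 (triangles) in the 6 libraries, with lines joining the replicates of a temperature. The large chain locus is higher in replicate 1 at each temperature (3545 against 135 RPKM at 11 °C), whereas the small chain replicates stay within 3490 and 4757 RPKM at 11 °C.

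Among loci for proteins that fold and modify Rubisco, more rose than fell against 25 °C. Of 14 tested loci for chaperonins, assembly factors and the large chain methyltransferase, 6 rose and 2 fell at 11 against 25 °C, 42.9% and 14.3% of the list, where 28.6% and 21.4% of all tested loci rose and fell. The median log2 difference was 0.86, against 0.13 over all tested loci. At 13 against 25 °C 8 rose and 3 fell (57.1% and 21.4%, against 26.3% and 17.0% of all tested loci), with a median of 1.09 against 0.12. The falls were thus below the background at 11 against 25 °C and near it at 13 against 25 °C. The alpha subunit of the Rubisco large subunit-binding protein, LOC_Os12g17910, part of the chloroplast chaperonin that folds the large chain, averaged 61.6 RPKM at 11 °C, 62.8 RPKM at 13 °C and 14.1 RPKM at 25 °C. Its log2 differences from 25 °C were 2.03 and 2.05 (limma adjusted p = 0.000684 and 0.00078). The 10 kDa chaperonin LOC_Os07g44740, a co-chaperonin, averaged 46.3, 53.4 and 5.96 RPKM at 11, 13 and 25 °C, a log2 difference of 2.77 at 11 °C and 2.96 at 13 °C. The methyltransferase LOC_Os02g49326, named for the large chain it modifies, averaged 58.2, 56.5 and 13.7 RPKM, and its differences from 25 °C were 2.05 and 2.01. The chaperonin subunit beta 1, LOC_Os06g02380, rose at 13 °C (1.02, limma adjusted p = 0.038) and had a difference of 0.85 at 11 °C (limma adjusted p = 0.0634). Both loci that fell at 11 °C, named here after their values were seen, are also described as large subunit-binding proteins: the alpha subunit LOC_Os03g64210 averaged 7.14, 3.9 and 20.2 RPKM at 11, 13 and 25 °C (-1.38 and -2.11 from 25 °C), and the beta subunit LOC_Os02g01280 averaged 0.985, 1.47 and 9.06 RPKM (-2.34 and -2.04). At 11 against 13 °C 2 of the 14 rose and none fell, 14.3% and 0.0% of the list. Of all tested loci 17.2% rose and 18.2% fell there, so the rises were near the background. Across the other settings 0 to 5 rose.

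The Calvin cycle list held 23 tested loci: 16 for enzymes of the cycle, 3 for CP12 regulatory proteins and 4 for carbonic anhydrases, which supply carbon dioxide and are not part of the cycle. At 11 against 25 °C 15 fell and 5 rose (median log2 difference -0.94, against 0.13 over all tested loci). At 13 against 25 °C 4 fell and 10 rose (0.58 against 0.12), and at 11 against 13 °C 17 fell and none rose (-1.21 against -0.02). These are 65.2%, 17.4% and 73.9% falling and 21.7%, 43.5% and 0.0% rising. Of all tested loci 21.4%, 17.0% and 18.2% fell and 28.6%, 26.3% and 17.2% rose. The falls at 13 against 25 °C were thus near the background, and the rises at 11 against 25 °C were below it. Of the 16 cycle enzymes alone, 11 fell and 3 rose at 11 against 25 °C, 2 fell and 6 rose at 13 against 25 °C, and 12 fell and none rose at 11 against 13 °C. The counts of falls in the whole list at 11 °C ranged over the other settings from 9 to 16 against 25 °C and from 10 to 18 against 13 °C.

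The most abundant of these loci followed different courses. The chloroplast aldolase LOC_Os11g07020 fell at both temperatures, with means of 2406, 3266 and 8494 RPKM at 11, 13 and 25 °C and log2 differences from 25 °C of -1.85 and -1.38. Phosphoribulokinase LOC_Os02g47020, which makes the substrate of Rubisco, averaged 204, 1021 and 1600 RPKM and fell at 11 °C (-2.95, limma adjusted p = 9.3e-05); its difference at 13 °C was -0.64 (limma adjusted p = 0.0868). Glyceraldehyde-3-phosphate dehydrogenase A, LOC_Os04g38600, averaged 233, 1653 and 1183 RPKM, lower at 11 °C than at 25 °C (-2.34) and lower at 11 °C than at 13 °C (-2.83), with 0.49 between 13 and 25 °C (limma adjusted p = 0.188).

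CP12-1, LOC_Os01g19740, rose at both low temperatures. This small protein is known to bind phosphoribulokinase and glyceraldehyde-3-phosphate dehydrogenase in an inactive complex. It had 5107 and 5220 RPKM at 11 °C, 3390 and 4503 RPKM at 13 °C and 112 and 195 RPKM at 25 °C, so that the cold libraries lay far above the 25 °C libraries. The log2 differences from 25 °C were 5.12 ± 0.34 at 11 °C and 4.71 ± 0.34 at 13 °C (limma adjusted p = 3.3e-05 and 5e-05), and within replicates 1 and 2 the 11 °C level was 45.6-fold and 26.7-fold that at 25 °C. Between 11 and 13 °C the difference was 0.40 and not called (limma adjusted p = 0.4). By its log2 difference at 11 °C it ranked 58th from the highest of the tested loci. The other tested CP12 loci took other courses against 25 °C. CP12-2, LOC_Os03g19380, was not called at 11 °C (-0.51, limma adjusted p = 0.202) and rose at 13 °C (1.34, limma adjusted p = 0.00919). CP12-3, LOC_Os08g40240, fell at both low temperatures (-2.20 and -1.09).

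**Figure D4:**
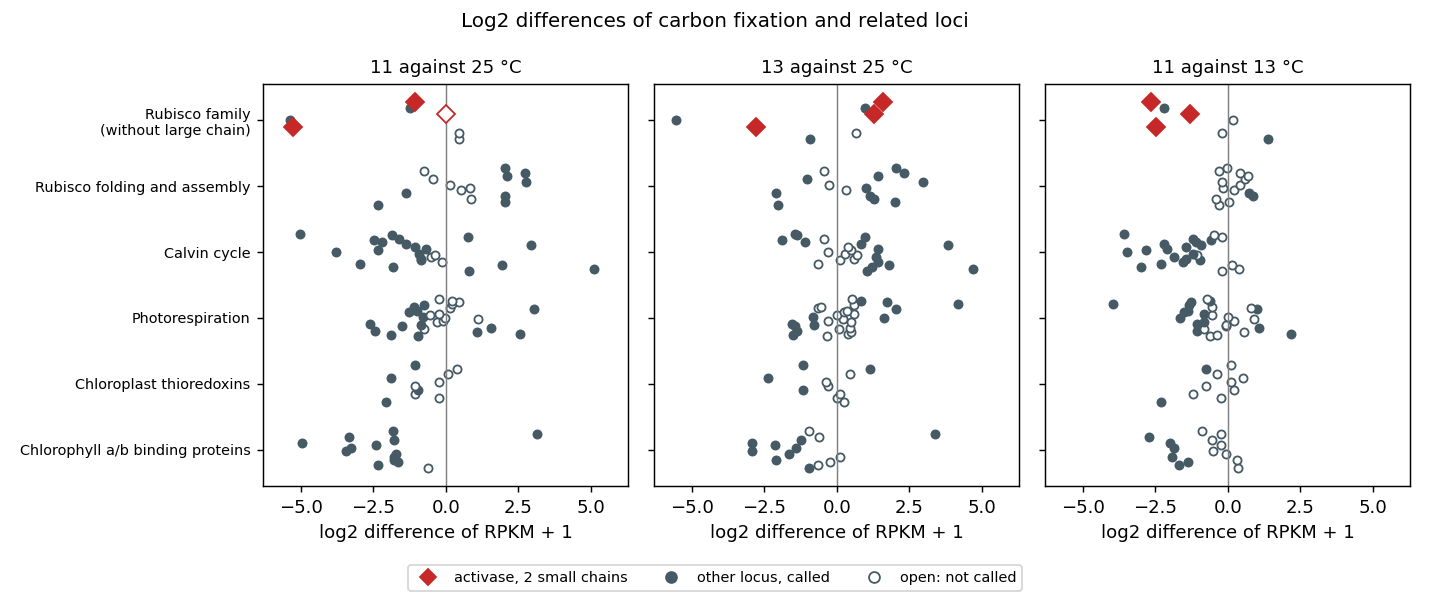
Log2 differences of RPKM + 1 in the 3 comparisons for loci of 6 groups; each point is 1 locus, red diamonds are the activase locus and the 2 small chain loci, filled points passed the limma threshold and open points did not. The activase locus lies at -5.27 and -2.80 against 25 °C, the small chain loci lie at 1.29 and 1.59 at 13 against 25 °C, and large chain loci are left out because they differ widely between replicates.

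Photorespiration recycles the product that Rubisco makes when it binds oxygen. Of 27 tested loci, 11 fell and 4 rose at 11 against 25 °C (median -0.31), 6 fell and 5 rose at 13 against 25 °C (0.25), and 11 fell and 3 rose at 11 against 13 °C (-0.62). These are 40.7%, 22.2% and 40.7% falling and 14.8%, 18.5% and 11.1% rising, against 21.4%, 17.0% and 18.2% and 28.6%, 26.3% and 17.2% of all tested loci, whose medians were 0.13, 0.12 and -0.02; the shares at 13 against 25 °C were near that background. Over the other settings the number that fell ranged from 5 to 12 at 11 against 25 °C and from 5 to 14 at 11 against 13 °C. The aminotransferase GGT1, LOC_Os07g01760, averaged 486, 1400 and 1179 RPKM at 11, 13 and 25 °C and fell at 11 °C against 25 °C (-1.27, limma adjusted p = 0.00409). The glycolate oxidases GLO5 (LOC_Os07g05820) and GLO1 (LOC_Os03g57220) had differences of -1.0 and -0.74 at 11 against 25 °C, and only the first passed the threshold (limma adjusted p = 0.0151 and 0.0832). Serine-glyoxylate aminotransferase, LOC_Os08g39300, fell at 11 °C as well (-1.10, limma adjusted p = 0.0208).

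Thioredoxins pass reducing power from the light reactions to Calvin cycle enzymes, and in some plants to the long activase isoform. Of 10 tested loci for thioredoxins and their reductase, 4 fell and none rose at 11 against 25 °C (median -1.01), 3 fell and 1 rose at 13 against 25 °C (-0.15), and 2 fell and none rose at 11 against 13 °C (-0.31). Of all tested loci 21.4%, 17.0% and 18.2% fell and 28.6%, 26.3% and 17.2% rose in these comparisons, so with 10 loci the 2 falls at 11 against 13 °C were near the background. Thioredoxin F, LOC_Os01g68480, the form best known for Calvin cycle enzymes, averaged 32.4, 166 and 139 RPKM at 11, 13 and 25 °C; it fell at 11 °C (-2.07, limma adjusted p = 0.000149) and differed by 0.26 at 13 °C (limma adjusted p = 0.354). Thioredoxin M5, LOC_Os12g08730, fell at both temperatures (-1.08 and -1.17). The catalytic chain of the reductase, LOC_Os09g07570, rose at 13 °C only among the comparisons with 25 °C (1.14, limma adjusted p = 0.00838; 0.37 at 11 °C, limma adjusted p = 0.261), and its variable chain, LOC_Os02g42570, was not called.

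The chlorophyll a/b binding proteins, which harvest light, were lower in the cold. Of 14 tested loci 12 fell and 1 rose at 11 against 25 °C (median -1.82), 8 fell and 1 rose at 13 against 25 °C (-1.10), and 6 fell and none rose at 11 against 13 °C (-0.71), which are 85.7%, 57.1% and 42.9% falling, against 21.4%, 17.0% and 18.2% of all tested loci. Their summed level was 2229 and 2046 RPKM at 11 °C, 4428 and 6044 RPKM at 13 °C and 11681 and 14914 RPKM at 25 °C, in the same order of temperatures as activase and not that of the small chain loci. Among the most abundant, LOC_Os02g10390 averaged 391, 1256 and 2000.0 RPKM, LOC_Os07g37550 averaged 156, 583 and 1533 RPKM, and LOC_Os09g17740 averaged 207, 1393 and 2238 RPKM. Each of these fell at 11 against 25 °C. At 13 against 25 °C LOC_Os07g37550 fell (-1.41, limma adjusted p = 0.0034) and LOC_Os02g10390 was not called (-0.66, limma adjusted p = 0.111). LOC_Os09g17740 overlapped there, with 1091 and 1695 RPKM at 13 °C and 1461 and 3015 RPKM at 25 °C. Wherever none rose or none fell in the lists above by limma, the count at an unadjusted p below 0.05 was 0 as well, and 0 by limma's voom on the recovered reads.

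Among described loci, that with the pattern nearest to activase was a light-harvesting one. Likeness was measured as the root mean square difference of log2(RPKM + 1) after centring each locus on its own mean over the 6 libraries. LOC_Os08g33820, chlorophyll a/b binding protein P4, lay at 0.28 from activase (r = 0.993 over the 6 libraries, a description), with 89 and 65.3 RPKM at 11 °C, 273 and 353 RPKM at 13 °C and 2559 and 2222 RPKM at 25 °C. The next nearest were LOC_Os03g37640, described as TRANSPARENT TESTA 12, at 0.32, metallothionein-like protein 3B (LOC_Os05g11320) at 0.36, a xyloglucan endotransglycosylase/hydrolase (LOC_Os08g13920) at 0.42 and polyol transporter 5 (LOC_Os12g32760) at 0.43. No described locus lay within 0.25 of activase.

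LOC_Os12g17600 had 59 described loci within 0.25. Counts within 0.25 were not set against the number of described loci tested. The nearest were ribosomal protein L37-1 (LOC_Os08g03450) and lipid-transfer protein 1 (LOC_Os11g02389), both at 0.16, a protein preY (LOC_Os10g30300) at 0.17, and the thylakoid protein CURVATURE THYLAKOID 1D (LOC_Os02g52260) and an actin (LOC_Os10g36650), both at 0.18. The preY locus had only 0.631 to 2.97 RPKM, and log2(RPKM + 1) understates changes at such levels. LOC_Os12g19470 had 15 described loci within 0.25, led by a putative methyltransferase (LOC_Os03g56370) at 0.08, which had 16.3 and 18.5 RPKM at 11 °C, 109 and 126 RPKM at 13 °C and 27.1 and 46.3 RPKM at 25 °C. A rhodanese-like chloroplast protein (LOC_Os02g15750) followed at 0.16, an ABC transporter (LOC_Os01g50070) at 0.17, a cytosolic glucose-6-phosphate isomerase (LOC_Os06g14510) at 0.18 and the photoreceptor PHR2 (LOC_Os03g22330) at 0.19. The ABC transporter was also low, with 0 RPKM in both 11 °C libraries and 5.44 and 4.54 RPKM at 13 °C. The small chain loci LOC_Os12g17600 and LOC_Os12g19470 lay 0.60 apart, while activase lay 2.26 and 2.04 from them.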

How the data were processed

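RNA from 6 libraries was analysed, from a table of RPKM per locus deposited by the authors. Reads were aligned with TopHat2 2.0.12, per the submitters' processing notes; strandedness, the counting program, the treatment of reads with several matches, the annotation and the build were not given in the sources used here. Library totals, locus lengths and reads were recovered from the RPKM values. In this way 19428 of 19438 tested loci (99.9%) gave whole reads within 0.02. Loci that reached an RPKM of 1 in 2 or more libraries were tested as log2(RPKM + 1), a scale that understates changes of low loci, with limma 3.58.1 in R 4.3.3: all libraries in 1 model, mean-variance trend, Benjamini-Hochberg adjustment over all tested loci and a threshold of 0.05. Alternatives changed the constant, filter, scaling, trend, replicate block, groups and libraries; limma's voom on the recovered reads was chosen after seeing the data. Fold changes are ratios of mean RPKM. Named loci were the 3 loci, all loci described as Rubisco or activase, the 4 most abundant of each other list and the 5 nearest patterns of each of the 3. Outside this rule, LOC_Os01g57968, CP12-2, CP12-3 and the large subunit-binding loci LOC_Os03g64210 and LOC_Os02g01280 were named too. The loci and lists were chosen with earlier results of these data known. Lists were matched by words in the table's descriptions. P-values rest on the spread between the 2 libraries of each temperature, pooled over the temperatures and moderated across loci.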

Additional observations from a re-analysis of the deposited data

How the results depend on the processing

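Over 16 other settings the activase differences from 25 °C and the LOC_Os12g19470 differences at 11 against 13 °C and 13 against 25 °C kept direction and call. For activase at 11 against 13 °C, -2.47 lost its call without a filter. For LOC_Os12g17600 at 11 against 25 °C, never called, leaving out single libraries gave -0.36 to 0.34, with 0.21 without 11 °C replicate 2. Its rise at 13 against 25 °C lost its call at 1.29 without a filter (adjusted p = 0.24), with only those temperatures (0.0777) and with the replicate block (0.0866), at 1.12 with median-of-ratios scaling and at 1.59 with quantile normalization; single libraries left out gave 0.94 to 1.64. At 11 against 13 °C it lost its call at -1.30 without a filter (0.254) and with the replicate block (0.0882), at -1.28 with median-of-ratios scaling and at -1.84 with quantile normalization, and left-out libraries gave -1.52 to -1.08. LOC_Os12g19470 at 11 against 25 °C lost its call at -1.07 without a filter (0.0655) and at -0.74 with quantile normalization, and left-out libraries gave -1.47 to -0.68. The calls at 11 against 13 °C numbered 6884, 11351 with the replicate block and 4109 to 6976 with libraries left out. The cause of these changes was not tested, other than that a left-out library leaves fewer samples. Replicates share only numbers in the labels; deviations of same-numbered libraries correlated at 0.61 to 0.713 across loci. The block also raised the number of Rubisco-family loci called higher at 11 against 25 °C from 0 to 5, which are the large chain loci LOC_Os10g21268 (3.73, adjusted p = 0.0154), LOC_Os12g10580 (2.59, 0.0207) and LOC_Os01g58020 (2.40, 0.0268), the activase-type LOC_Os04g56320 (0.46, 0.0198) and the small chain LOC_Os02g05830 (0.47, 0.0368). With the block the same large chain loci were called higher at 13 against 25 °C (3.80, 2.69 and 2.58), and LOC_Os12g19381 lost its call there (0.96, 0.0583). The smallest read number of the 3 loci in a library was 8847.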
